A study of Mus musculus with 11 samples.

Results

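Mice that had lost a copy of both Csf1r and Csf2 (Csf1r+/-; Csf2+/-, here Dhet) were compared with wild-type mice (WT) by bulk RNA sequencing of microglia, the resident macrophages of the brain. All 5 libraries of these groups were used, 2 Dhet and 3 WT, of 11 in the series, and every gene whose normalized counts averaged 10 or more over the 11 libraries, which gave 13223 of 14739. The other 1516 genes lay under that minimum and were not tested. The other 6 libraries came from mice that lacked a copy of Csf1r alone (Csf1r+/-, here Csf1r_het, 3 libraries) or of Csf2 alone (Csf2+/-, here Csf2_het, 3 libraries). All mice were C57BL/6, and each library held cells that were positive for the microglial protein Tmem119 and had been sorted from the cerebrum. WT replicates 1 to 3, Dhet replicate 1, Csf1r_het replicate 3 and Csf2_het replicates 1 to 3 were 21 months old, Csf1r_het replicate 1 was 20 months, and Dhet replicate 2 and Csf1r_het replicate 2 were 24 months. The labels give no promoter or Cre for these alleles, and they do not say whether animals were pooled or came from the same litters, so the p-values measure the spread between these libraries only. The comparison asks what microglia of mice short of both genes look like, and whether a missing Csf2 copy alters what a missing Csf1r copy does.

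Csf1r encodes a receptor tyrosine kinase that binds the growth factors CSF-1 and IL-34 and keeps microglia and much of the monocyte lineage alive. Csf2 encodes GM-CSF, a cytokine that activates JAK2 and STAT5 through the receptor chains Csf2ra and Csf2rb and drives inflammatory programmes in myeloid cells. In people, mutations in CSF1R cause an adult leukoencephalopathy, and mice with a single functional Csf1r copy are used as a model of it.

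The 5 libraries held between 27280036 and 45786206 reads assigned to genes, so that 1 read was worth 0.575 to 1.15 normalized counts. The microglial markers P2ry12, Tmem119 and Siglech were abundant in every library of both groups, the lowest value being 5368 normalized counts (Siglech in WT replicate 2), while haemoglobin genes took 16.1% to 32.4% of the counts. Some libraries stood apart. Dhet replicate 2 held 717 normalized counts of Ddx3y, a Y-linked gene, and 4.02 of Xist, against at most 16.3 and at least 3011 in all the others, so the 2 Dhet libraries differed in these genes and in age. Dhet replicate 1 had 15.9% of its counts in mitochondrial genes, against 6.31% in Dhet replicate 2 and 6.40% to 10.5% in WT. WT replicate 2 and Csf1r_het replicate 2 lay far from the rest on the leading principal components. Between the 2 Dhet libraries, 1275 of 11930 genes with a mean of at least 50 differed by at least 4-fold.

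Far more genes fell than rose in the Dhet microglia. Limma, fitted to log2(normalized count + 1) over all 4 groups with Benjamini-Hochberg adjustment at 0.05, called 70 of 13223 genes (0.529%). Of these, 66 fell (0.499%) and 4 rose (0.0303%). Apart from Adcy4 and Gm37519, at 0 in both Dhet libraries, they fell by 2.79-fold to 191-fold with a median of 6.57-fold, and 60 of the 66 were protein coding. The predicted miRNA genes Gm23935, Gm24245 and Gm24270 held the same values in every library, so these 3 calls are a single measurement. Its log2 difference was -3.54 without Dhet replicate 1 and -2.12 without Dhet replicate 2. In all 66 both Dhet libraries lay below all 3 WT libraries, which the call itself selects for, so this is no added support. In 16 they lay below all 9 other libraries of the series. Over all genes tested, both Dhet libraries lay below all WT libraries for 1665 genes (12.6%) and above them for 1789 (13.5%), and beyond all 9 others for 220 (1.66% below) and 473 (3.58% above), with a median log2 difference of 0.02.

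How many genes were called depended on the libraries in the fit. Of the 70 genes, 1 was still called without Dhet replicate 1, 6 without WT replicate 1, 31 without WT replicate 2, 43 without Dhet replicate 2 and 64 without WT replicate 3, and all 70 kept their direction in each of these fits. Only Cd300e was called in all 11 fits that left out 1 library of the series. On the reads recovered from the normalized counts, edgeR's quasi-likelihood test called 26 genes (0.19%), all of them among the 70. DESeq2 on the same reads called 357 of 14739 genes, and its counts in the lists below are to be read against that share. With the WT and Dhet libraries alone in the limma fit 0 genes were called, with 966 at an unadjusted p under 0.05.

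The falls with the lowest p were in surface receptors of myeloid cells. Fcgr4 (ENSMUSG00000059089.4, mm10 chromosome 1, 171018920 to 171029761), an activating Fc receptor for IgG, was at 7994, 9067 and 9039 normalized counts in WT and at 990.4 and 1061 in Dhet. Both Dhet libraries lay far below WT and below every other library, where the lowest value was 1809.7. Its level was 8.48-fold lower (log2 difference -3.08, SE 0.34, limma adjusted p = 0.00492). Cd300e (ENSMUSG00000048498.7, chromosome 11, 115051917 to 115062177), an activating receptor of monocytes, was at 5557, 5254 and 6740.3 in WT and at 672 and 296 in Dhet, 12.1-fold lower and with no overlap (log2 difference -3.70, SE 0.42, limma adjusted p = 0.00492). Treml4 (ENSMUSG00000051682.15, chromosome 17, 48264295 to 48275360), a TREM-like receptor that binds dying cells, was at 9005, 4756 and 7608 in WT and at 963 and 766 in Dhet (8.24-fold lower, log2 difference -3.00, SE 0.37, limma adjusted p = 0.00638). Its Dhet values lay within reach of Csf2_het, at 918, 1033 and 1164. Without Dhet replicate 1 the adjusted p was 0.0663 for Fcgr4, 0.00881 for Cd300e and 0.0663 for Treml4. The log2 difference of Cd300e was -4.29 without Dhet replicate 1 and -3.11 without Dhet replicate 2.

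Because these 3 genes lead the falls, the 250 bases before their RefSeq starts (GRCm38.p6) are shown 5′ to 3′ on the strand of the gene, Fcgr4 from chr1:171018676-171018925 on the forward strand, Cd300e from chr11:115062040-115062289 on the reverse strand and Treml4 from chr17:48264045-48264294 on the forward strand. Capitals mark a match to GAGGAAG, the core of PU.1 sites, or to TTCNNNGAA, the STAT motif, searched on both strands. PU.1 is the master regulator of macrophages.
Fcgr4: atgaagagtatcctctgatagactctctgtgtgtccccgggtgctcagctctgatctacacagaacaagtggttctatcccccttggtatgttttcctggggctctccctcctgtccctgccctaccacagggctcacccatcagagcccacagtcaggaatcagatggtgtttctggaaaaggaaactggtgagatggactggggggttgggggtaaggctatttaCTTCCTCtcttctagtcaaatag
Cd300e: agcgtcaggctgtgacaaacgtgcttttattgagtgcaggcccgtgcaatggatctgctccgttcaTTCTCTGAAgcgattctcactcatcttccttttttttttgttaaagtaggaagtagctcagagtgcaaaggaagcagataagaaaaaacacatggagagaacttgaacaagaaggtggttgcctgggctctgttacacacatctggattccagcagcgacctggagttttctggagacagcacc
Treml4: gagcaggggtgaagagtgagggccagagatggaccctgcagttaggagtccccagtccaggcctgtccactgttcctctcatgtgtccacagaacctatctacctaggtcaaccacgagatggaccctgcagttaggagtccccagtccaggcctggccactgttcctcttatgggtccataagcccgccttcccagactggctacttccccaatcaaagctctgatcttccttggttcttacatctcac
Fcgr4 held a PU.1 match on the reverse strand 23 bases before its start, Cd300e a STAT match 184 bases before its start, and Treml4 neither. RefSeq gave 56 promoters for 48 of the 66 genes that fell, and 12136 for 9431 of the genes tested. PU.1 letters stood in 17.9% of the former and 11.1% of the latter, STAT letters in 19.6% and 6.00%, the C/EBP motif TTGCNNAA in 17.9% and 8.15%, and the NR4A motif AAAGGTCA in 0% and 0.989%. Over all 32851 promoters the shares were 10.6%, 7.02%, 9.56% and 1.34%. Matches to different motifs could overlap and were counted separately, and the shares describe letters, not binding.

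**Figure D1:**
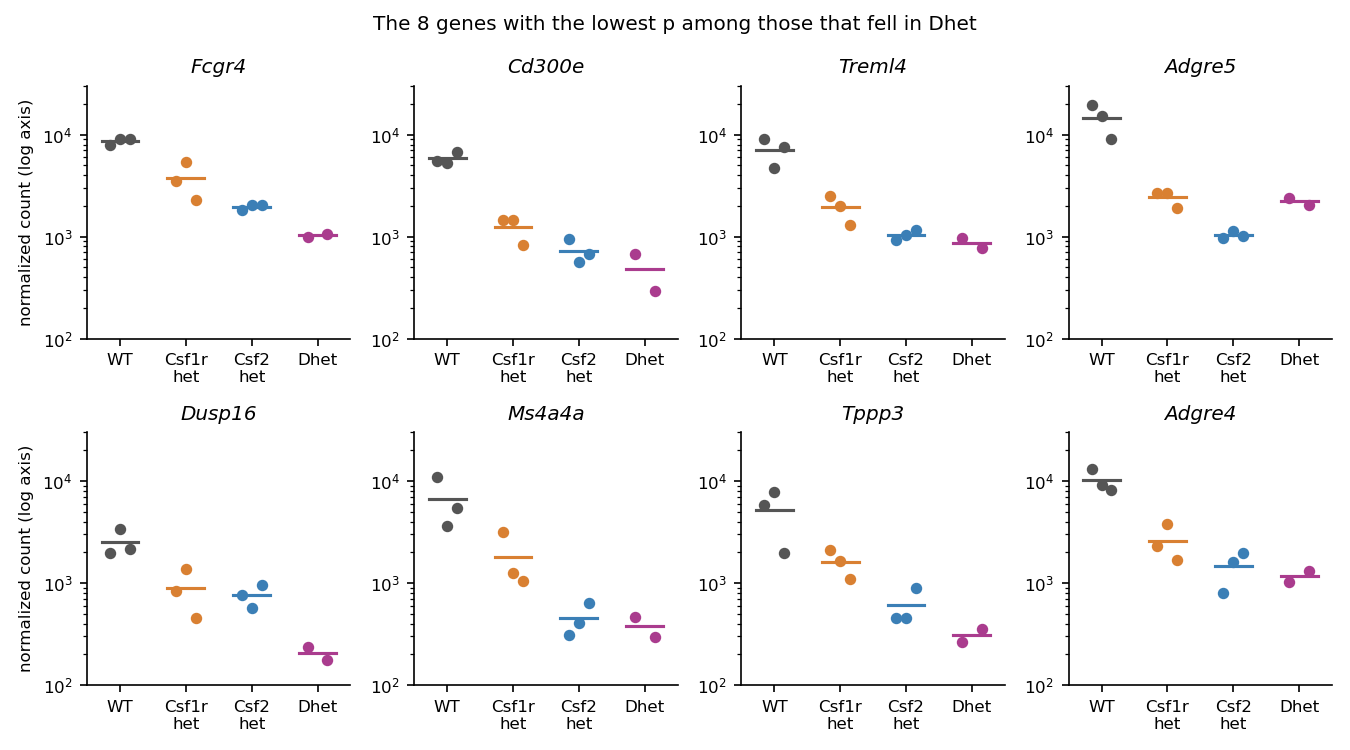
Normalized counts (log axis) of the 8 genes with the lowest p among those that fell in Dhet, 1 panel per gene, with 1 point per library and a line at the mean of each of the 4 groups. In Fcgr4, Cd300e and Treml4 both Dhet points lie far below the 3 WT points, while the Csf2_het points lie close to or within the Dhet range for Cd300e and Treml4.

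The adhesion receptors and the cytoskeleton held several more. Adgre5 (CD97, an adhesion G protein-coupled receptor that binds CD55) was at 19359, 15116 and 9063 in WT and at 2401 and 2032 in Dhet, a fall of 6.55-fold (log2 difference -2.65, SE 0.34, limma adjusted p = 0.00897). Its relative Adgre4 was at 13251, 9214 and 8136 in WT and at 1034 and 1301 in Dhet (8.74-fold lower, limma adjusted p = 0.0121). The groups did not overlap in either gene. S1pr5, a sphingosine 1-phosphate receptor that guides the exit of monocytes and NK cells from bone marrow, was at 2402, 1855 and 2432 in WT and at 353 and 287 in Dhet (limma adjusted p = 0.0131). Of 18 integrin and migration genes, 2 fell, 0 rose and 16 were not called, with a median log2 difference of -0.05 (edgeR called 2, DESeq2 4). Those were Itgal, the LFA-1 alpha chain, at 15712, 13417 and 6233 in WT and 2129.6 and 1263 in Dhet (log2 difference -2.74, SE 0.42, limma adjusted p = 0.0133), and Itga4, the VLA-4 alpha chain, at 4561, 5105 and 2671 in WT and 527 and 727 in Dhet (log2 difference -2.68, SE 0.44, limma adjusted p = 0.019). Flna, the actin crosslinker filamin A, fell from 18576, 12472 and 9750 to 3300.2 and 3030.1 (limma adjusted p = 0.0131). Without Dhet replicate 1 none of these 6 was called, with adjusted p from 0.0699 for Adgre5 to 0.239 for Itga4.

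The largest falls were in genes of varied function. By log2 difference they began with Adcy4 (-7.30), Saa3 (-6.80), the predicted gene Gm37519 (-6.18, at 0 in both Dhet libraries), Dpep2 (-4.73), Fcrl5 (-4.60), Ext1 (-4.52) and Fabp4 (-4.30). Saa3, a serum amyloid A protein made by activated macrophages, was at 313, 3856 and 487 in WT and at 3.0 and 13.2 in Dhet, 191-fold lower (log2 difference -6.80, SE 1.14, limma adjusted p = 0.021). WT replicate 2 carried most of that mean, and without it the log2 difference was -5.70 and the call was lost (limma adjusted p = 0.0715). Fabp4, a fatty acid carrier of macrophages and fat cells, was at 1056, 6074 and 683 in WT and at 62.3 and 108 in Dhet (30.6-fold lower, limma adjusted p = 0.0235), with WT replicate 2 again the highest. Without that library its log2 difference was -3.35 (limma adjusted p = 0.0252). Adcy4, an adenylyl cyclase, was at 263, 301 and 48.2 in WT and at 0 in both Dhet libraries and in all 3 of Csf2_het. Against the 0.977 normalized counts that 3 reads over the Dhet group are worth, it was at least 209-fold lower (limma adjusted p = 0.0407). Ext1, which builds heparan sulphate, was at 664, 635 and 419 in WT and at 21.8 and 25.3 in Dhet, below every other library (24.3-fold lower, limma adjusted p = 0.0127).

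Further large falls kept the Dhet libraries apart from WT without exception. Ms4a4a, a tetraspan protein of macrophages, was at 10948, 3663 and 5471 in WT and at 462 and 298 in Dhet (17.6-fold lower, limma adjusted p = 0.012). Dusp16, a phosphatase that switches off JNK and p38, was at 1986, 3361 and 2162 in WT and at 236 and 176 in Dhet (12.2-fold lower, limma adjusted p = 0.00897). Dpep2, a dipeptidase that converts leukotriene D4, was at 2680.4, 2101 and 3605 in WT and at 35.3 and 289 in Dhet (17.2-fold lower, limma adjusted p = 0.0133). Its log2 difference was -3.23 without Dhet replicate 1 and -6.23 without Dhet replicate 2, so the 2 Dhet libraries set its size. Tppp3, Eno3, Skint3 and Fcrl5 were 16.9-fold, 11.5-fold, 11.9-fold and 26.5-fold lower (limma adjusted p = 0.0121, 0.0221, 0.019 and 0.0487). Eno3 is an enolase of glycolysis, and Fcrl5 is an Fc receptor-like protein known from B cells. Without Dhet replicate 1 the calls of this paragraph and those of Saa3, Fabp4, Adcy4 and Ext1 were lost, with adjusted p from 0.0697 for Dusp16 to 0.289 for Eno3. Among these genes leaving out 1 library also moved the log2 difference of Skint3 (-3.93) to -2.72 and -5.13, without Dhet replicates 1 and 2, and without WT replicate 3 that of Tppp3 from -3.87 to -4.46, of Adcy4 to -8.14 and of Fabp4 to -4.93.

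Grouped by pathway, the list with most called members was that of paired and inhibitory receptors, followed by lipid handling and the integrin and migration genes above with 2 each. Of 19 paired receptors 5 fell, 0 rose and 14 were not called (median log2 difference -0.70 against 0.02 over all genes). EdgeR called 1 of them and DESeq2 7, and limma 0 without Dhet replicate 1 or without WT replicate 1. These receptors set the threshold of myeloid activation through short ITIM or ITAM motifs. The named falls were Clec4a1 (6151, 6724 and 2490.0 in WT, 364 and 575 in Dhet, limma adjusted p = 0.0131), Clec4a3 (18369.7, 39136 and 11163 against 2817 and 2253, limma adjusted p = 0.0296), Cd300ld (5829, 8589 and 6103 against 1334 and 834, limma adjusted p = 0.0312) and Pirb (8367, 5874 and 5605 against 1446 and 2176, limma adjusted p = 0.0419), and Pilra was the fifth. Of 7 Fc receptors, Fcgr4 alone fell and 0 rose (edgeR and DESeq2 called 1; median -0.30, 0.19 without Dhet replicate 2). Of 27 lipid handling genes 2 fell and 0 rose (edgeR called 1, DESeq2 5; median -0.41), Fabp4 and Plin2. Plin2, the coat protein of lipid droplets, was at 4347, 3799.7 and 5722 in WT and at 908 and 1346 in Dhet (log2 difference -2.04, SE 0.32, limma adjusted p = 0.0146).

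Inflammatory and effector lists held a fall each. Il1b, the cytokine interleukin 1 beta, was at 4434, 7222 and 4857 in WT and at 838 and 918 in Dhet, 6.27-fold lower (log2 difference -2.62, SE 0.48, limma adjusted p = 0.0338). It was the only called member of 21 cytokines and chemokines, whose median was 0.56, with 13 of 21 above 0 (edgeR called 0, DESeq2 1). That median was 0.90 for Dhet replicate 1 and -0.27 for Dhet replicate 2, so its direction rested on Dhet replicate 1. Il1a, its neighbour on chromosome 2, was at 320.4, 57.3 and 559 in WT and at 1903 and 885 in Dhet, which did not pass (log2 difference 2.57, limma adjusted p = 0.228). Cybb, which forms the catalytic core of the oxidase that phagocytes use to make superoxide, was at 34969, 39791 and 26533 in WT and at 10235 and 8518 in Dhet (log2 difference -1.83, SE 0.31, limma adjusted p = 0.021), the only call among 7 oxidase genes (edgeR 0, DESeq2 1; median -0.80). Ifi204, a DNA sensor induced by interferon, fell from 2271, 3546 and 1278 to 562 and 436 (limma adjusted p = 0.0441) and was the only call among 25 interferon-response genes (edgeR 0, DESeq2 5). Both Dhet libraries lay below all WT libraries in 9 of those 25 and above them in 0, against 12.6% and 13.5% of all genes. The median of the list was -1.01, and -0.75 without WT replicate 2. Its genes summed to 141550, 658865 and 65500 in WT, so WT replicate 2 was far the highest. Limma called 0 of them without WT replicate 1 or without WT replicate 2. Tgfbi, a matrix protein induced by TGF-beta, fell from 11609, 13998 and 3836 to 1590.4 and 1451 (limma adjusted p = 0.0399), and Klf2, a transcription factor that restrains myeloid activation, from 13972, 9672 and 4193 to 1730.1 and 1387 (limma adjusted p = 0.0353). Without Dhet replicate 1 the calls of the 4 named receptors, Plin2, Il1b, Cybb, Ifi204, Tgfbi and Klf2 were lost, with adjusted p from 0.136 for Cybb to 0.449 for Pirb.

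Many of these genes are known from monocytes, and the summed level of the monocyte markers was lower in both Dhet libraries than in any WT library. In these bulk libraries fewer cells of a type and less RNA per cell cannot be told apart. The 15 monocyte markers had a median log2 difference of -1.40, 0 called and 7 with both Dhet libraries below all WT libraries, and 8 were lower at an unadjusted p under 0.05 (limma; edgeR called 0 and DESeq2 6). Over all 13223 genes, 1329 had an unadjusted p under 0.05 (10.1%), 820 of them lower (6.2%) and 509 higher in Dhet (3.85%), and the unadjusted counts of the lists are to be read against these shares. Both Dhet libraries lay below all WT libraries in 12.6% of all genes. The monocyte markers summed to 132726, 267460 and 87967 normalized counts in WT, 77928 and 70150 in Dhet, 60126 to 72185 in Csf1r_het and 17314 to 26150 in Csf2_het. Of the 15 only Vcan was at 0 in any of the 5 libraries (Dhet replicate 1). A list of 18 genes of non-classical, patrolling monocytes, written after the values were seen and holding 10 of the called genes, summed to 143661, 231466 and 98404 in WT and to 27014 and 22064 in Dhet. Csf1r_het lay between these ranges, at 48887 to 54305, and Csf2_het, at 26050 to 41189, overlapped the Dhet range. All 18 had both Dhet libraries below all WT libraries, with a median of -2.77 (-2.72 without WT replicate 2). That list includes Ear2, a ribonuclease, at 17405, 45755 and 14689 in WT and 3178 and 1535 in Dhet (limma adjusted p = 0.032). Of 12 border macrophage markers 7 were tested, with 0 called and a median of -0.54, which was -0.98 for Dhet replicate 1 and 0.13 for Dhet replicate 2. The part of such cells in the falls was not tested.

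**Figure D2:**
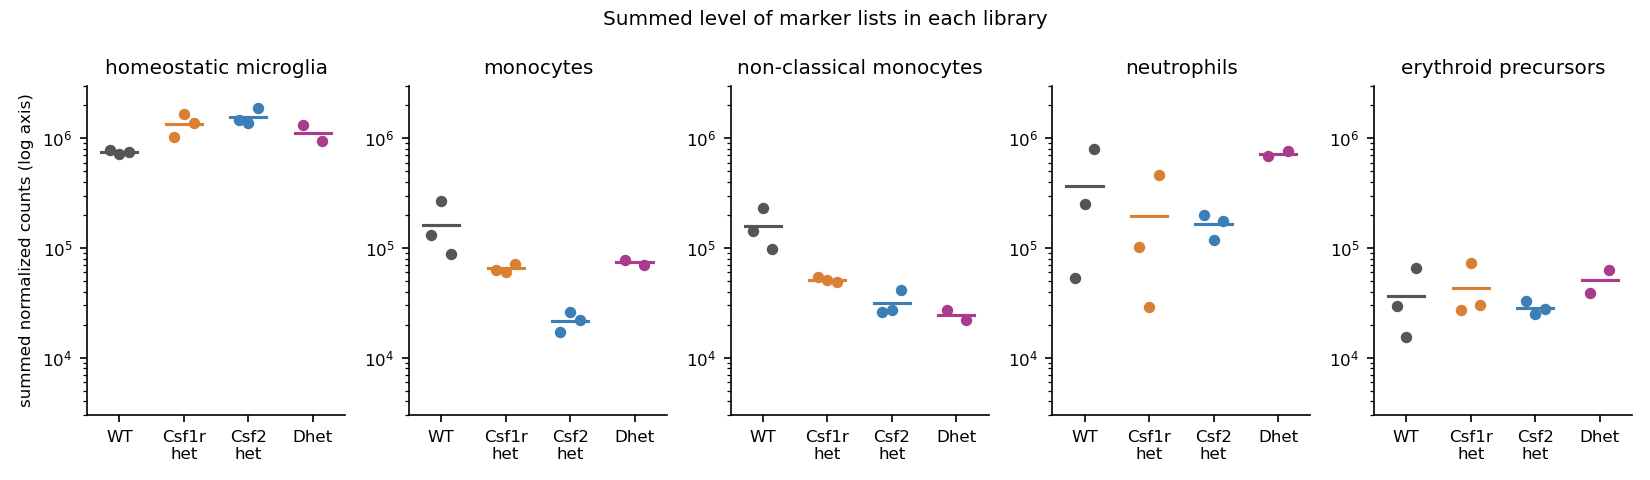
Summed normalized counts (log axis) of homeostatic microglial, monocyte, non-classical monocyte, neutrophil and erythroid precursor lists, with 1 point per library and a line at the mean of each group. The non-classical monocyte sums of both Dhet libraries lie below those of all 3 WT libraries, and the neutrophil sums of both Dhet libraries lie within the wide WT range. The non-classical monocyte and erythroid precursor lists were written after the values were seen. The former holds 10 of the called genes, so its separation is no test.

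All 4 genes that rose share most of their sequence with other genes. Rps3a2 and Rps3a3 are annotated in GENCODE vM21 as processed pseudogenes. By alignment they are near copies of Rps3a1, which encodes a protein of the small ribosomal subunit. Rps3a2 (ENSMUSG00000062611.4, chromosome 14, 88123017 to 88123808) matched 788 of 795 aligned coding bases of Rps3a1 (99.1%) and Rps3a3 (ENSMUSG00000059751.7, chromosome 13, 108670603 to 108671397) 786 of 795 (98.9%). Coding bases 526 to 645 of Rps3a1, counted from the first base of its start codon, show how close the 3 are. Capitals mark the bases that differ from Rps3a1.
Rps3a1: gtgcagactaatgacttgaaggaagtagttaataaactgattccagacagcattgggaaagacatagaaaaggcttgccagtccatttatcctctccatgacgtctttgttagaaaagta
Rps3a2: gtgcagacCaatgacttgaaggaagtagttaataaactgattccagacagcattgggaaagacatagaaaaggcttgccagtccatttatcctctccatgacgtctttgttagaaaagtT
Rps3a3: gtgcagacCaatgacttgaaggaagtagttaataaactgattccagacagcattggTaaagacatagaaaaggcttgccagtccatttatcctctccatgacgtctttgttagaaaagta
Each copy differed at 2 of these 120 bases. Rps3a2 was at 8.99, 8.73 and 1.15 normalized counts in WT and at 1535 and 1378 in Dhet, 232-fold higher (log2 difference 7.94, SE 0.96, limma adjusted p = 0.00638). Rps3a3 was at 1.93, 3.88 and 0 in WT and at 576 and 477 in Dhet (log2 difference 7.76, SE 1.16, limma adjusted p = 0.0131). Both were as high in Csf2_het (1094 to 1463 and 442 to 828) and as low as in WT in Csf1r_het (at most 9.47 and 5.26). Rps3a1 itself (ENSMUSG00000028081.6, chromosome 3) was at 11019.5, 21991 and 6856 in WT and at 3937 and 3144 in Dhet, which was not called (log2 difference -1.75, limma adjusted p = 0.197). In Csf2_het it was at 3334 to 5321, and in Csf1r_het at 6646 to 15484. Without Dhet replicate 1 the adjusted p was 0.0699 for Rps3a2 and 0.137 for Rps3a3, and without WT replicate 3 the log2 differences were 7.21 and 7.12.

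The remaining pair followed the same groups. Gm28438 (chromosome 1, 24612775 to 24613119) is a nuclear copy of the mitochondrial gene mt-Nd3, a subunit of respiratory complex I. It was at 5.78, 131 and 11.5 in WT, 23295 and 3964 in Dhet, 12.6 to 23.7 in Csf1r_het and 1608 to 62327 in Csf2_het (log2 difference 8.75, SE 1.41, limma adjusted p = 0.0177). mt-Nd3 was at 10766, 92952 and 17663 in WT and at 8231 and 1836 in Dhet, which was not called (limma adjusted p = 0.378). Gm8797 (chromosome 3, 5750806 to 5751295) was at 1346, 923 and 1523 in WT, 3976 and 5463 in Dhet, 1667 to 2876 in Csf1r_het and 4023 to 6165 in Csf2_het (3.73-fold higher, limma adjusted p = 0.0354). Without Dhet replicate 1 the adjusted p was 0.268 for Gm28438 and 0.17 for Gm8797, and the log2 difference of Gm28438 ran from 7.47 (without Dhet replicate 1) to 10.03 (without Dhet replicate 2 or WT replicate 2). Of the 31-base words in each transcript, 312 of 315 in Gm28438 also stood in mt-Nd3, and 422 of 460 in Gm8797 stood in the transcript Gm1821. For Rps3a2 708 of 762 and for Rps3a3 600 of 765 stood in some other gene. Because kallisto divides reads among transcripts that share such words, the split of reads between these genes is uncertain.

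**Figure D3:**
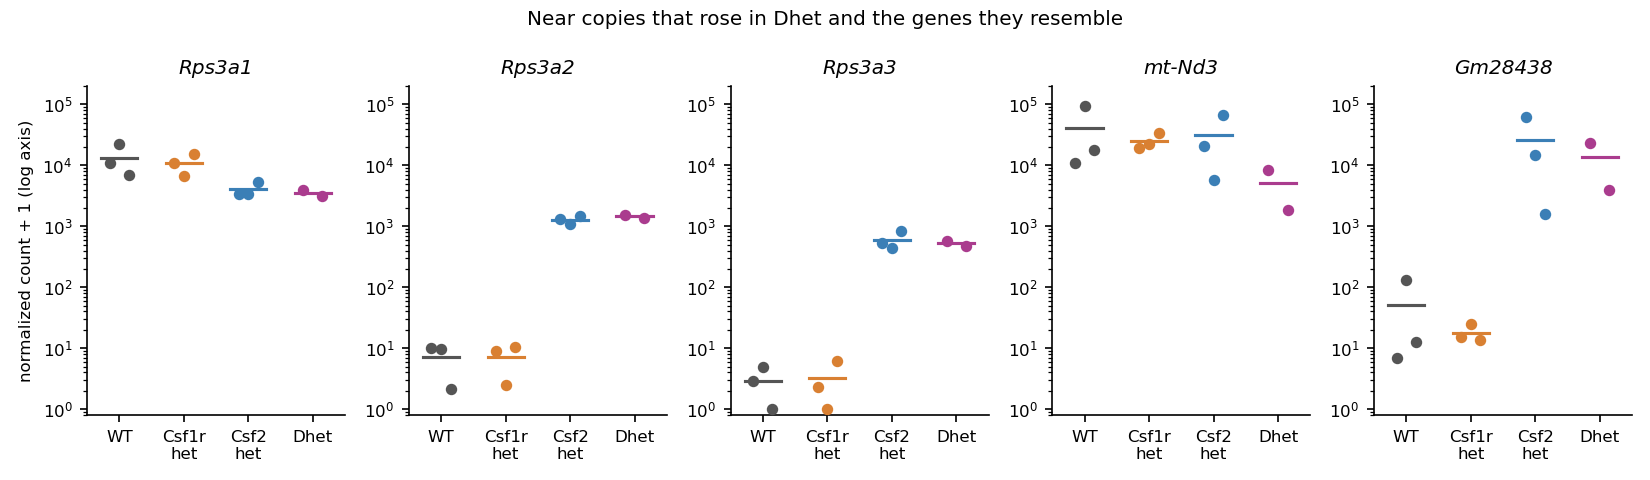
Normalized count + 1 (log axis) of Rps3a1 and its copies Rps3a2 and Rps3a3, and of mt-Nd3 and its copy Gm28438, with 1 point per library and a line at the mean of each group. The copies are high in every Dhet and Csf2_het library. Before the 1 is added, Rps3a2 and Rps3a3 stay under 10 normalized counts in WT and Csf1r_het. Both Dhet points of Rps3a1 lie below its WT points.

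Among the CSF ligands and receptors no gene was called by limma. Of 7 tested, 2 were lower at an unadjusted p under 0.05, and edgeR called 0 and DESeq2 2. In 4 both Dhet libraries lay below all WT libraries, against 12.6% of all genes. Csf1r (ENSMUSG00000024621.15, chromosome 18), whose copy was removed, was at 93319, 41261 and 63538 normalized counts in WT and at 40151 and 30254 in Dhet, the lowest WT library just above the higher Dhet library (log2 difference -0.84, SE 0.50, limma adjusted p = 0.589). Csf2rb, the signalling chain shared by the GM-CSF, IL-3 and IL-5 receptors, was at 5995, 5546 and 3669.6 in WT and at 1957 and 1701 in Dhet (log2 difference -1.44, limma adjusted p = 0.136). Csf2ra, the GM-CSF-binding chain, was at 4333, 2585 and 2056 in WT and at 962 and 1443 in Dhet (log2 difference -1.27, limma adjusted p = 0.222). The groups did not overlap in either chain. Csf2rb2, the mouse chain specific for IL-3, was at 899.7, 838 and 767 in WT and at 1484 and 289 in Dhet, so the Dhet libraries lay on both sides of WT. Csf2rb and Csf2rb2 are close copies, and the split of reads between them is uncertain. Il3ra was at 325, 209 and 62.0 in WT and 27.8 and 54.0 in Dhet, Csf1 at 428, 154 and 345 against 885 and 342, and Csf3r at 3411, 1472 and 3531 against 2517 and 3359, none of them called. Csf2, Il34, Csf3 and Il5ra were not analysed here. Of 20 genes of JAK-STAT5 signalling and the CSF-2 response 0 were called, 9 were lower and 1 higher at an unadjusted p under 0.05, and DESeq2 called 4 and edgeR 0 (median -0.83). The transducer Stat5b was at 2272, 1291 and 1127 in WT and at 149 and 686 in Dhet (log2 difference -2.22, limma adjusted p = 0.214).

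Cell-cycle genes stood higher in both Dhet libraries, though limma called none. Of 23, 22 had a positive log2 difference, 15 had both Dhet libraries above all WT libraries, and 12 had both above all 9 other libraries of the series. Over all genes the last 2 shares were 13.5% and 3.58%. At an unadjusted p under 0.05, 10 were higher, where 3.85% of all genes were, and 1 was lower, and edgeR called 0 and DESeq2 3. The median was 1.56 (1.33 without WT replicate 2), 1.35 for Dhet replicate 1 and 1.66 for Dhet replicate 2. Against the single heterozygotes it was 1.79 (Csf1r_het) and 2.23 (Csf2_het), with 0 genes called in either, while Csf1r_het and Csf2_het had medians of -0.14 and -0.62 against the same WT libraries.

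Single genes showed the same separation. Birc5 (survivin), needed for chromosome segregation, was at 88.0, 134 and 473 in WT and at 1147 and 1333 in Dhet (log2 difference 2.79, SE 0.66, limma adjusted p = 0.113). Mki67, the proliferation marker Ki-67, was at 169.5, 231 and 406 in WT and at 743 and 1076 in Dhet (limma adjusted p = 0.335). Mcm7, a subunit of the replicative helicase, was at 638, 303 and 303 in WT and at 1284 and 1022 in Dhet (limma adjusted p = 0.349). In these 3 genes both Dhet libraries lay above every other library. Tyms, which makes thymidylate for DNA synthesis, was at 220.3, 89.3 and 476 in WT and at 964 and 1633 in Dhet (limma adjusted p = 0.136). Cdkn1a (p21), an inhibitor of the cycle, was the exception, at 1017, 2252 and 995 in WT and 448 and 313 in Dhet, below every other library (log2 difference -1.81, SE 0.40, limma adjusted p = 0.0803). Outside the list, Pbk, a mitotic kinase, was among the genes apart from WT by at least 4-fold. It was at 42.4, 22.3 and 193 in WT and 1154 and 1168 in Dhet and was not called (limma adjusted p = 0.0925).

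**Figure D4:**
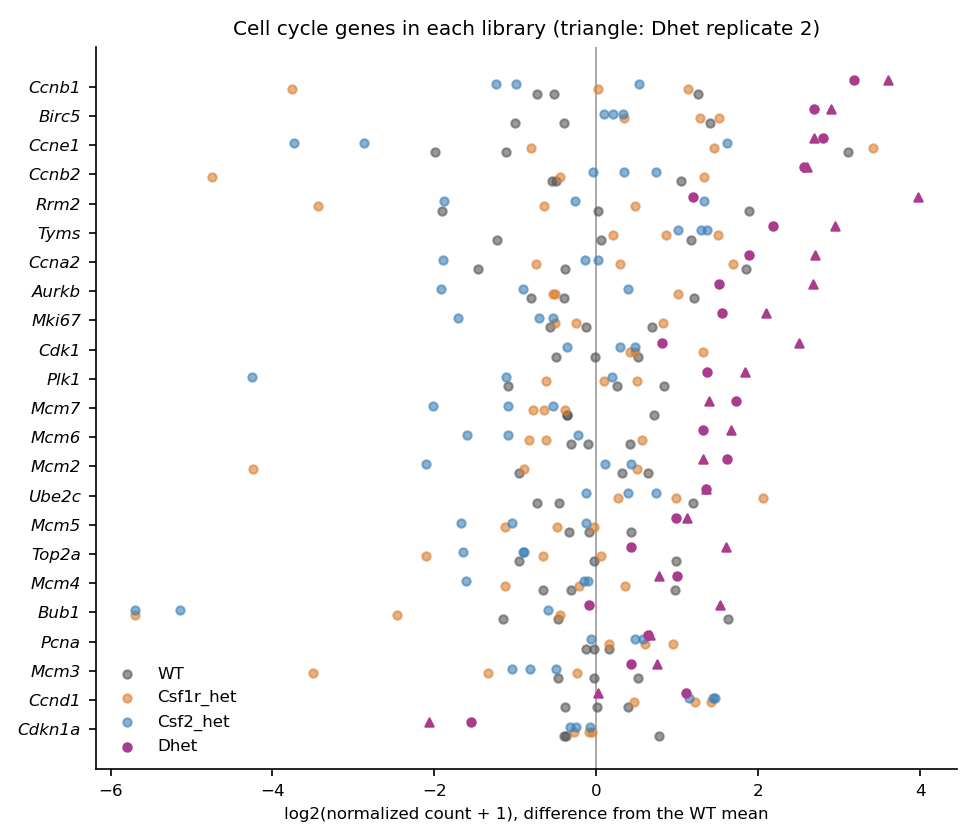
Difference of log2(normalized count + 1) from the WT mean for the 23 cell-cycle genes, with 1 point per library coloured by group and Dhet replicate 2 as a triangle. Both Dhet points of Birc5, Mki67 and Mcm7 lie above all 9 other points, and those of Cdkn1a below them.

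Marker lists of blood-forming cells had positive medians beside the cell-cycle genes, without a call by limma or edgeR. The 13 neutrophil markers all had positive log2 differences (median 2.13, 0 called by limma, edgeR or DESeq2, 2 higher at an unadjusted p under 0.05). In 3 both Dhet libraries lay above all WT libraries, against 13.5% of all genes. Their sums were 53409, 250736 and 803409 in WT and 685233 and 768631 in Dhet, so WT replicate 3 exceeded both Dhet libraries. In Csf1r_het they ran from 29113 to 459735 and in Csf2_het from 117988 to 198464. The 3 lists written after the values were seen had medians of 2.65 (13 granulocyte precursor genes), 1.70 (16 erythroid precursor genes) and 1.92 (8 B cell precursor genes), with 0 called by limma or edgeR and 1 erythroid precursor gene by DESeq2. Their sums overlapped between WT and Dhet in all 3 lists. Of the 8 B cell precursor genes 5 had positive log2 differences. Those 8 genes summed to 9329, 10297 and 3087 in WT and to 3676 and 5857 in Dhet, so both Dhet sums lay below 2 of the WT sums. Mpo, the myeloperoxidase of granule precursors, was at 1831, 6.79 and 2219 in WT and at 3629.9 and 14124 in Dhet. Klf1, the erythroid master regulator, was at 0, 0 and 55.1 in WT and at 111 and 890.1 in Dhet. Igll1, the surrogate light chain of B cell precursors, was at 0, 0 and 9.18 in WT and at 391 and 292 in Dhet. WT replicate 3 was the highest WT library for each of these 3 genes and for Birc5, Mki67 and Tyms. The part of such cells in the cell-cycle values was not tested.

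Genes of resting microglia mostly lay higher in Dhet without passing the test. Of 20 homeostatic genes 18 had positive differences, and the median was 0.77 (0.49 without WT replicate 2). In 9 both Dhet libraries lay above all WT libraries, against 13.5% of all genes. Limma called 0, with 6 higher at an unadjusted p under 0.05, edgeR 0 and DESeq2 1. Against the same WT libraries the median was 0.54 in Csf1r_het, with 0 called, and 1.12 in Csf2_het, with 3 called. The higher level was thus not particular to Dhet. P2ry12, the ADP receptor that guides microglial processes, was at 23927, 12808 and 26704 in WT and at 50949 and 54485 in Dhet (log2 difference 1.39, SE 0.44, limma adjusted p = 0.287). Siglech was at 10597, 5368 and 11975 in WT and at 19973 and 18008 in Dhet (limma adjusted p = 0.343), and Tmem119, the sorted marker, at 17695, 5432 and 19084 against 30741 and 23328 (limma adjusted p = 0.476). The groups did not overlap in these 3, and WT replicate 2 was the lowest of the 5 libraries in each. Of 24 disease-associated genes 0 were called (limma and edgeR; DESeq2 called 1), 4 were higher and 2 lower at an unadjusted p under 0.05, and the median was 0.49. Spp1 (osteopontin) was at 706, 237 and 742 in WT and at 2081 and 1233 in Dhet, while Itgax (CD11c) was at 1860.3, 1508 and 1021 in WT and at 408 and 129 in Dhet. Neither passed (limma adjusted p = 0.257 and 0.153).

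The lists of antigen presentation, ribosomal and mitochondrial genes had negative medians of differing size. All 14 genes of the MHC class I pathway had negative differences (median -0.96, 0 called, 7 lower at an unadjusted p under 0.05, edgeR and DESeq2 called 0). Of these, 7 had both Dhet libraries below all WT libraries, where 12.6% of all genes did. Of 13 class II genes 4 did, 4 were lower at an unadjusted p under 0.05 and 0 were called (edgeR 0, DESeq2 3; median -0.96, -1.18 for Dhet replicate 1 and -0.21 for Dhet replicate 2). H2-Aa, a class II alpha chain, was at 30871, 30446 and 10630.2 in WT and at 4887 and 7458 in Dhet (log2 difference -1.83, limma adjusted p = 0.124). The 42 ribosomal protein genes had a median of -1.16, which was -0.32 without WT replicate 2, and the 33 oxidative phosphorylation genes -0.29, which was 0.11 without it. In both lists limma, edgeR and DESeq2 called 0, with 9 ribosomal genes lower and 0 of the others at an unadjusted p under 0.05. WT replicate 2 thus carried much of both medians.

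In the lists of complement, Toll-like receptors, antioxidant enzymes, cholesterol synthesis and glycolysis 0 genes were called by limma or edgeR. Of 15 complement genes 4 were lower at an unadjusted p under 0.05 (median -0.20, DESeq2 called 2), led by C3, the central complement component, at 3448, 4261 and 1858 in WT and 1384 and 621 in Dhet (limma adjusted p = 0.221). Of 16 Toll-like receptor genes 4 were lower unadjusted (median -0.31, DESeq2 0), and Tlr8 was at 654, 766 and 407 in WT and 5.26 and 113 in Dhet (limma adjusted p = 0.343). Of 25 antioxidant genes 3 were lower and 1 higher unadjusted (median -0.26, DESeq2 1), and Txnrd1, a thioredoxin reductase, was at 635, 1509 and 949 in WT and 257 and 366 in Dhet (limma adjusted p = 0.152). The groups did not overlap in C3, Tlr8 or Txnrd1. Of 19 cholesterol genes 1 was lower and 1 higher unadjusted (median -0.22, DESeq2 1). Hmgcs1, an enzyme of sterol synthesis, was at 841, 296 and 913 in WT and 1611 and 1187 in Dhet (limma adjusted p = 0.488). Of 19 glycolytic genes 3 were lower and 1 higher unadjusted (median -0.31, DESeq2 0), the higher one being the lactate exporter Slc16a1 at 481, 174 and 513 in WT and 880.1 and 1448 in Dhet (limma adjusted p = 0.335). The unadjusted counts of the cholesterol list lay near the 6.2% lower and 3.85% higher over all genes. The complement median was 0.04 without Dhet replicate 1 and 0.08 without WT replicate 1, the antioxidant median 0.22 without WT replicate 3 and the cholesterol median 0.12 without Dhet replicate 1, so 1 library turned the direction of each.

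Among microglial transcription factors, the unfolded protein response and the immediate early genes, limma called Klf2 alone. Of 16 microglial transcription factors 0 were called by limma or edgeR and 4 were lower unadjusted (median -0.24, DESeq2 called 2). Cebpb, a factor of inflammatory macrophages, was at 23395, 7017 and 11934 in WT and at 4261 and 509 in Dhet (log2 difference -3.08, limma adjusted p = 0.139). Its 2 Dhet libraries lay below WT but far from each other. Of 20 genes of the unfolded protein response 0 were called by limma or edgeR and 1 was lower unadjusted (median 0.11, DESeq2 1), the sensor Atf6 at 1546, 1632 and 1064 in WT and 560.2 and 421 in Dhet (limma adjusted p = 0.152). The 32 lysosomal genes (median 0.15) and the 10 neurotrophic genes (median 0.58) had 0 called by limma, edgeR or DESeq2 and 0 at an unadjusted p under 0.05. Without WT replicate 2 the median of the transcription factors was 0.0050, that of the unfolded protein response genes -0.0066 and that of the lysosomal genes -0.075, so these 3 medians changed sign. The lysosomal median was also below 0 without Dhet replicate 1, at -0.0067. Of 12 TGF-beta genes Tgfbi alone was called (edgeR 0, DESeq2 1; median -0.39, 0.0035 without WT replicate 1), and of 19 immediate early genes Klf2 alone (edgeR 0, DESeq2 2; median -0.35, 0.06 for Dhet replicate 1 and -0.98 for Dhet replicate 2).

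**Figure D5:**
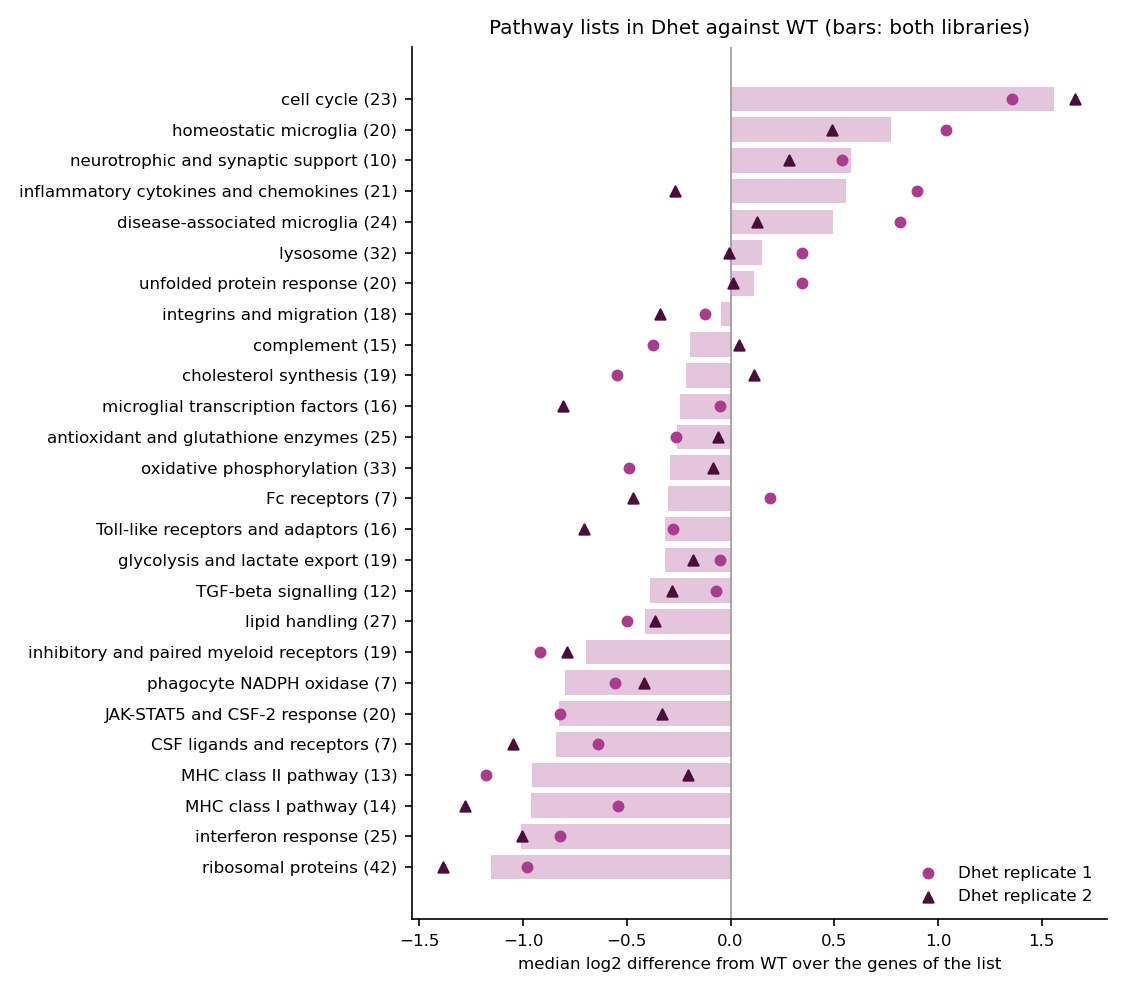
Median log2 difference of Dhet from WT over the genes of each pathway list (bars, number of genes in brackets), with the medians of Dhet replicate 1 (circles) and Dhet replicate 2 (triangles). The cell-cycle list lies farthest to the right among the pathway lists, at 1.56, and the ribosomal list farthest to the left, at -1.16.

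Marker lists of neurons, astrocytes and oligodendrocytes had positive medians in Dhet, but of their summed levels only the neuronal one kept the groups apart. The medians were 2.52 over 7 neuronal, 1.31 over 10 astrocyte and 1.59 over 5 oligodendrocyte genes, with 0 called by limma or edgeR and 1, 0 and 1 by DESeq2, and with 3, 2 and 3 higher at an unadjusted p under 0.05. The astrocyte markers summed to 21471, 7469 and 33862 in WT and 17990.2 and 34904 in Dhet, and the oligodendrocyte markers to 6412, 4958 and 4986 in WT and 10130.5 and 5236 in Dhet. The neuronal markers summed to 443, 439 and 701 in WT. Snap25, a synaptic protein of neurons, was at 79.0, 49.5 and 499 in WT and at 709.6 and 989.5 in Dhet, and at 233 to 1989 in the single heterozygotes. The neuronal sums of 1881 and 1702 normalized counts in Dhet compare with 1315800 and 940759 for the 20 homeostatic genes in the same libraries. The other lists had medians of -0.66 (13 T and NK cell genes), -0.73 (10 B cell genes), 0.52 (7 dendritic cell genes), -0.39 (5 endothelial and mural genes), 0.15 (12 choroid plexus genes) and 0.35 (11 haemoglobin and erythroid genes), with 0 called by limma, edgeR or DESeq2. At an unadjusted p under 0.05 these 6 lists held 3 higher genes and 1 lower gene. The B cell median was 0.05 without Dhet replicate 1, and the choroid plexus median -0.39 without Dhet replicate 2 and -0.25 without WT replicate 2.

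Among the genes with both Dhet libraries above all WT libraries by at least 4-fold, which were 30 of 11930 with a mean of at least 50, were Rps3a2, Rps3a3 and Gm28438, and others among the first by p are described here with no test. Ces1d, a carboxylesterase, was at 1.93, 0 and 0 in WT and at 234 and 222 in Dhet. Fxyd6, a regulator of the sodium pump, was at 0, 0.971 and 2.29 in WT and at 164 and 58.6 in Dhet. Vsnl1, a neuronal calcium sensor, was at 7.06, 1.94 and 14.9 in WT and at 226 and 99.5 in Dhet. In the single heterozygotes these 3 reached 61.1, 112 and 147. Cenpi, a centromere protein, was at 43.7, 7.76 and 19.5 in WT and at 250.1 and 316 in Dhet, with 357 in Csf1r_het replicate 2.

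Directly against the single heterozygotes, limma called few genes in Dhet. With 2 Dhet libraries, a gene without a call is not shown to be equal. Against Csf1r_het limma called 1 of 13223 genes (0.00756%), Rps3a2, and 1390 had an unadjusted p under 0.05. Against Csf2_het it called 3 (0.0227%), with 1083 unadjusted. These counts were 121 and 85 without Dhet replicate 2, 8 and 63 without WT replicate 2 and Csf1r_het replicate 2 (left out together after their values were seen), and 115 and 183 by DESeq2. Pygl and Nfe2, called in the second comparison, were low in Csf2_het, with no overlap with WT or Dhet. Pygl, the glycogen phosphorylase of liver and myeloid cells, was at 3080.5, 3362 and 3867 in WT, 2760.3 and 2262 in Dhet and 449, 279 and 188 in Csf2_het (limma adjusted p = 0.0114). Nfe2, a transcription factor of megakaryocytes and other blood cells, was at 3293, 2381 and 3369 in WT, 2594 and 2363 in Dhet and 577, 549 and 307 in Csf2_het (limma adjusted p = 0.0456). In Csf1r_het they were at 784 to 1051 and 923 to 963. The monocyte list and the integrin and migration list each held 1 of the 3 calls. The summed levels of the neutrophil and the monocyte markers were also higher in Dhet than in Csf2_het. For the monocyte markers they were 77928 and 70150 against 17314 to 26150. The part of either in these differences was not tested.

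For the genes that led the falls, the values of the 3 comparisons with WT can be set side by side, though they share the WT libraries. Fcgr4 had log2 differences of -1.31 in Csf1r_het, -2.14 in Csf2_het and -3.08 in Dhet, Cd300e -2.27, -3.03 and -3.70, and Ext1 -1.25, -2.08 and -4.52. Adgre5 had -2.53, -3.73 and -2.65, and Pirb -2.63, -3.45 and -1.87. The interaction, which asks whether the Dhet difference departs from the sum of the single differences on the log2 scale, was called for 244 genes (1.85%) and for 16 of the 70. The 70 were picked on Dhet and WT libraries that also enter the interaction, so the 16 are no independent result. The count over all genes was unstable. It was 14 with a replicate block, 26 with no trend in the prior, 47 without Dhet replicate 1, 61 without WT replicate 1 and 896 without WT replicate 2. Of the 16, these fits kept 5, 3, 6, 7 and 16. The interaction was 3.62 for Adgre5 (limma adjusted p = 0.0069) and 4.20 for Pirb (limma adjusted p = 0.0036). In both the Dhet fall was smaller than the sum of the other 2, and the call held in each of these fits. It was not called for Fcgr4 (0.37, limma adjusted p = 0.71), Cd300e (1.60, 0.16) or Ext1 (-1.19, 0.50). For none of these genes was the direct difference of Dhet from either single heterozygote called.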

How the data were processed

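Bulk RNA sequencing libraries of sorted microglia were analysed from a table of the whole series. The submitters' processing notes name kallisto 0.43.1 for quantification, mm10 as the build and DESeq2, without a version, for normalization. The deposited signal holds 1 value per gene and library, which the authors obtained by scaling gene counts with a library's size factor. The sources used here give no gene filter. In each library 100% of the values were whole multiples of what 1 read is worth, within 0.02 reads, which gave back the reads. Floors for genes at 0 used 3 reads over a group and cover counting error only.

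Groups came from the labels. Values were tested as log2(normalized count + 1), which understates the changes of low genes, with limma 3.58.1 (R 4.3.3) in a single fit of all 11 libraries in 4 groups with a trended prior (7 residual degrees of freedom), over the 13223 genes with a mean of 10 or more. Benjamini-Hochberg adjustment at 0.05 ran over all of them in each contrast. The fit was tested on simulated data. Alternatives were edgeR 4.0.16 and DESeq2 1.42.0 on the recovered reads, other pseudocounts, filters, scalings and spreads, a replicate block and fits without each library. Leaving out WT replicate 2 and Csf1r_het replicate 2 together was added after the data were seen.

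The members, the gene lists and the rules were chosen with earlier results of these data known. By rule, the CSF ligands and receptors were named, then the 12 largest rises and falls that were called at a mean of 50 or more under a symbol that is no predicted name. Each pathway list gave up to 4 of its calls, or its 2 lowest p where it had none, and each marker list up to 2 of its most abundant genes. Since few genes rose, those apart from WT by at least 4-fold were added. Other genes, among them Cd300e, Treml4, the adhesion G protein-coupled receptors, Il1a, Mki67, Mcm7, Tyms, Ear2 and the precursor genes, were chosen after their values were seen. Some genes that the rule took are counted in their list only, and some results are not reported here. Promoters were matched to RefSeq by symbol, and transcripts came from GENCODE vM21.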

Additional observations from a re-analysis of the deposited data

Results flagged for a closer look

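For 11 of the genes named by rule, limma's interaction term was called, with adjustment over all genes. The term asks whether the difference between Dhet and WT departs from the sum of the differences of Csf1r_het and Csf2_het from WT. Over all genes tested it was called for 244 (1.85%). Some of the 11 were named for their call or p in Dhet against WT. That comparison shares the Dhet and WT libraries with the term, so their number is no independent result. Outside the 11, the term was also called for Flna (2.99, limma adjusted p = 0.0085) and Adgre5. The call of Adgre5 held with a replicate block and with no trend in the prior. A positive value means that Dhet lay higher than that sum. The libraries of all 4 groups enter the term, WT replicate 2 and Csf1r_het replicate 2 included. Pirb alone of the 11 was called in every alternative fit of the term. The calls kept were 1 with a replicate block, 1 with no trend in the prior, 3 without Dhet replicate 1 (Pirb, Plin2 and Gsr) and 4 without WT replicate 1 or Csf2_het replicate 1 (those of Pirb, Plin2, Gsr and Cybb), while edgeR kept 10 and DESeq2 11. The sign was kept by all of the 11 that each fit tested.

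Among genes that fell in Dhet, the interaction was 4.20 for Pirb (limma adjusted p = 0.0036), 3.54 for Tgfbi (limma adjusted p = 0.019), 3.06 for Itgal (limma adjusted p = 0.02), 2.97 for Klf2 (limma adjusted p = 0.027), 2.76 for Cybb (limma adjusted p = 0.0087) and 2.54 for Plin2 (limma adjusted p = 0.015). For these 6 genes the direct differences of Dhet from Csf1r_het and Csf2_het were not called. Among genes not called in Dhet, it was 4.93 for F13a1, a transglutaminase of monocytes and border macrophages (limma adjusted p = 0.018), 3.68 for Chil3 (limma adjusted p = 0.024), 3.64 for Gsr, glutathione reductase (limma adjusted p = 0.0087), and 3.57 for C3 (limma adjusted p = 0.019). F13a1 was at 5788, 4863 and 1751 in WT, 1853 and 3428 in Dhet and 172 to 643 in Csf2_het. The value for Cd63, a tetraspanin of lysosomes, was -2.16 (limma adjusted p = 0.043), with 8268, 8390.5 and 11866 in WT, 15682 and 14659 in Dhet, 18391 to 33682 in Csf1r_het and 22240.5 to 29655 in Csf2_het.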

How the results depend on the processing

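Counts of calls moved more than directions. For Dhet against WT (70 calls), DESeq2 called 357, array weights 106, edgeR 26, limma with no trend 6 and the 2 groups alone 0 (966 at an unadjusted p under 0.05), while leaving out 1 library gave 2 (without Dhet replicate 1) to 173 (without Dhet replicate 2). For Dhet against Csf1r_het (1 call), DESeq2 called 115, array weights 20, edgeR 2, no trend 3, a pseudocount of 8 gave 3 and of 0.5 gave 0, the 2 groups alone 0 (1609 unadjusted), the fit without WT replicate 2 and Csf1r_het replicate 2 gave 8, and leaving out 1 library gave 0 to 121. For Dhet against Csf2_het (3 calls), these were 183, 20 and, with no trend, 1, a pseudocount of 8 gave 6, the 2 groups alone 0 (1511 unadjusted), the fit without both libraries 63, and leaving out 1 library 0 to 85. For the interaction (244 calls, 159 above and 85 below 0), whose alternatives were added after the data were seen, DESeq2 called 986, array weights 1592, no trend 26, a replicate block 14, the fit without both libraries 1292 and leaving out 1 library 47 (without Dhet replicate 1) to 896 (without WT replicate 2), and median-centring split the calls 119 to 122 and TMM scaling without haemoglobin 128 to 115. The log2 difference of Csf2rb2 (-0.35) was 0.098 with DESeq2, 0.073 with edgeR and -1.52 to 0.83 without 1 library, and that of Csf3r (0.16) was -0.16 with array weights, -0.26 without both libraries and -0.26 to 0.38 without 1. The cause was not tested. For same-numbered libraries of WT and Dhet, deviations from the group mean correlated at -0.058 (replicates 1) and -0.131 (replicates 2). The deviations of the 2 Dhet libraries mirror each other, so these values cannot show whether a replicate number marks a batch. A fit with the replicate number as a block called 48 genes against WT, 46 of them among the 70, and 0 against each single heterozygote. With X and Y genes left out 66 were called. All 70 genes kept their direction in every fit that tested them. Depth limits the genes near 0, such as Adcy4 and Rps3a3, and the 2 Dhet libraries limit the precision of every fold.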

Other observations

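Choroid plexus genes were abundant in all libraries of the sort. Ttr, which encodes transthyretin, was at 266811, 627562 and 337450.0 normalized counts in WT and at 226138 and 438300.0 in Dhet, and both single heterozygotes lay higher, at 730110.0 to 1409440.0. Enpp2 (autotaxin) was at 146601, 65409 and 148060.0 in WT and at 50249.9 and 180661 in Dhet, so Dhet replicate 1 was the lowest and Dhet replicate 2 the highest of the 5 libraries.

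Ifitm2, an interferon-induced membrane protein, fell from 33817, 111205 and 15703 to 4556 and 4714 (limma adjusted p = 0.0419, and 0.342 without Dhet replicate 1), and Samhd1, which degrades deoxynucleotides, from 14310.0, 12727 and 6162 to 2241 and 3031 (limma adjusted p = 0.0338, and 0.361 without it). The log2 difference of Ifitm2, -3.07, was -2.31 without WT replicate 2 and -3.73 without WT replicate 3. Neither stood in the interferon list, and both were chosen after their values were seen.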
